A study of Mus musculus with 3 samples.

Results

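Some places in the mouse genome were listed in each of 3 chromatin immunoprecipitation sequencing (ChIP-seq) libraries of embryonic stem (ES) cells, whichever antibody or transgene was used. The places described here are the common regions that lie outside the parts of the genome where regions of the control library crowd together. A common region is a region of the ZFP57 list whose start lies less than 150 bp from a control start and less than 150 bp from a KAP1 start, so the set was chosen by the listed positions of the 3 libraries. The mitochondrial sequence and every 1 Mb window with 40 or more control regions (a dense window) were left out. There were 1335 such regions, which is 6.06% of the 22031 regions of the ZFP57 list. A further 6317 common regions lay inside the 178 dense nuclear windows and are used here for comparison.

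The control library came from ES cells without a transgene and was made with an antibody against the HA tag, a short peptide that those cells were not given. The ZFP57 library was also made with an HA antibody, from ES cells that expressed HA tagged ZFP57. The KAP1 library was made with a KAP1 (RBCC) antibody from E14 ES cells without a transgene. For the HA cultures, neither the promoter of the transgene nor the ES cell line was given in the sources used here. Each group held 1 library, so there were no replicates, no test between conditions was possible, and the depth behind each list is unknown. The lists hold positions only, on build mm9 per the submitters' processing notes, with every region 150 bp wide and no score. Outside dense windows and off the mitochondrial sequence, 28838 of 45956 control regions, 9142 of 22031 ZFP57 regions and 7409 of 20870 KAP1 regions were left. Intervals below are exact 95% intervals (Clopper-Pearson for shares, Poisson for counts, order statistics for medians). They cover counting error only and treat regions as independent, which clustered regions are not.

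ZFP57 binds DNA through its zinc fingers and protects methylation at imprinting control regions. Its KRAB domain recruits KAP1 (TRIM28), a scaffold for enzymes that form repressive chromatin. A control ChIP in cells that lack the tagged protein shows what the procedure recovers in its absence. Sources of such background known in general include open chromatin, which fragments and is recovered easily, and sequences present in more copies in the cells than in the genome assembly, which draw reads from all copies. Gene positions and sequence of build mm9 were not used here, so no region is given a gene name or a sequence.

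Outside dense windows, 27.2% of the 9142 ZFP57 regions had a control start within reach, 21.1% had a KAP1 start and 14.6% had both (interval 13.9 to 15.3%). Inside dense windows the shares were 64.4%, 61.3% and 49.2% (48.3 to 50.04% for both). The rule chose the common regions on these distances, so the shares are a description. Of the ZFP57 regions outside dense windows with a KAP1 start, 69.2% also had a control start (67.1 to 71.2%). Of those with a control start, 53.6% also had a KAP1 start (51.7 to 55.6%). The remaining ZFP57 regions outside dense windows were 1154 with a control start only, 595 with a KAP1 start only and 6058 with neither. Few partners were shared: the 1335 common regions had 1322 different control regions and 1318 different KAP1 regions as their nearest partners, and none had more than 2 starts of either list within reach.

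The rule has 2 thresholds, one on distance and one on windows. The worse of the 2 distances was at least 140 bp for 22 common regions, and for 15 regions just outside the rule it was at least 150 but under 160 bp. It was 0 to 9 bp for 60 common regions, 10 to 19 bp for 219 and 20 to 29 bp for 264. At the window threshold, the 41 windows with 36 to 39 control regions held 106 common regions, with a median of 1 and a highest count of 19 per window. The 25 windows with 40 to 43 control regions, which were left out, held 52, with a median of 1 and a highest count of 17.

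In most common regions the 3 libraries were listed at closely neighbouring positions. The absolute distance between midpoints had a median of 26 bp from ZFP57 to control (quartiles 15 and 47) and of 19 bp from ZFP57 to KAP1 (quartiles 7 and 45.5). In 851 common regions (63.7%, interval 61.1 to 66.3%) the ZFP57 midpoint lay within 50 bp of both others. The spread from the lowest to the highest of the 3 midpoints had a median of 43 bp and reached 245 bp. The rule makes each ZFP57 region overlap both partners, and in 33 common regions (2.47%) the control and KAP1 regions did not overlap each other. Exact coincidence was rare. The ZFP57 start equalled the KAP1 start in 26 common regions and the control start in 7, and the 3 starts were identical in 0. The tightest triple, chosen after its value was seen, was on chromosome 1 from 49783833 to 49783982, where the control region had the same start as the ZFP57 region and the KAP1 region started 1 bp higher.

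The offsets had a direction. Signed along the chromosome, the control midpoint lay at a median of -21 bp from the ZFP57 midpoint (interval -22 to -19), that is, towards lower coordinates. The KAP1 midpoint lay at a median of 0 bp from the ZFP57 midpoint (-1 to 2) and at 21 bp from the control midpoint (19 to 23). The control was on the lower side in 1055 common regions (79.0%) and on the higher side in 273 (20.4%). KAP1 was lower than ZFP57 in 658 and higher in 651. Thus the library that stood apart in position was the control, although it shared the HA target of its antibody with the ZFP57 library. The rule is symmetric around 0 and does not fix this direction.

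**Figure D1:**
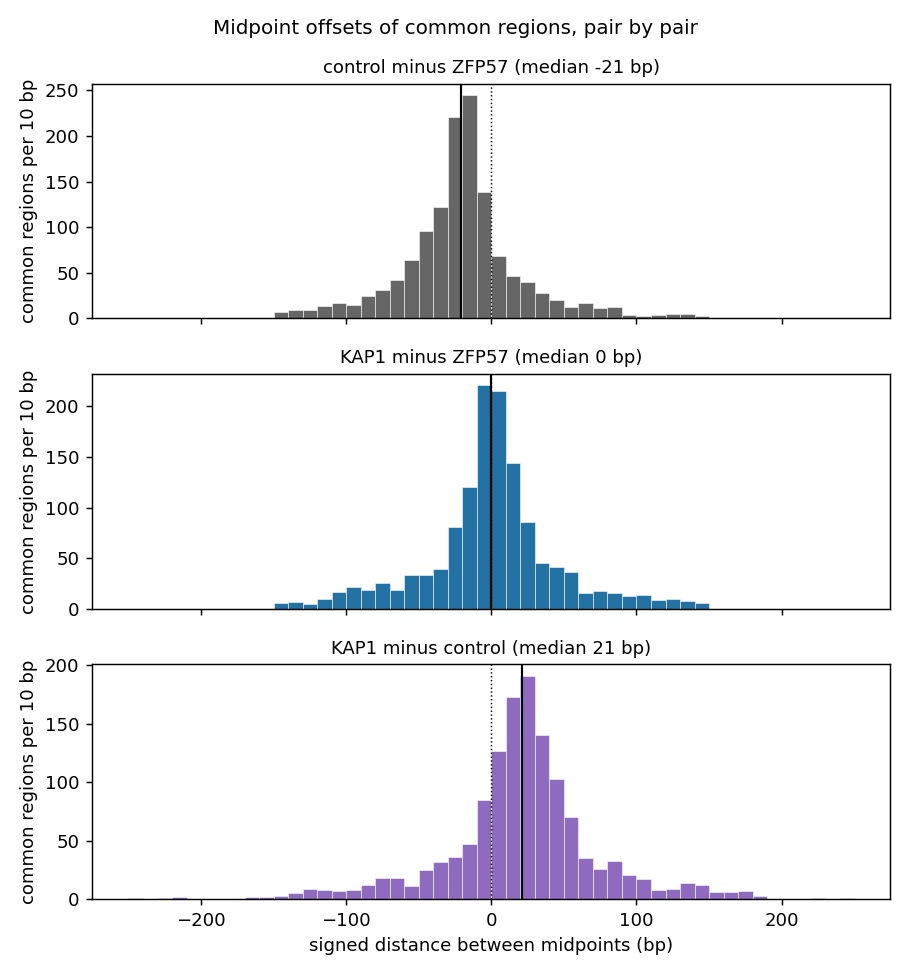
Signed distances between the midpoints of the 1335 common regions in 10 bp bins, for control minus ZFP57 (top), KAP1 minus ZFP57 (middle) and KAP1 minus control (bottom); the solid line is the median and the dotted line is 0. The top panel is centred at -21 bp, the middle one at 0 bp and the bottom one at 21 bp.

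The same shift was seen on each chromosome with common regions. The median of control minus ZFP57 was below 0 on 20 of 20 chromosomes, from -30 bp (chromosome 10) to -7 bp (chromosome 11), and the control was on the lower side in 63.0% to 94.9% of each chromosome's common regions. On chromosome 10, 16 of the 39 common regions lay in the repeated unit described below, each with the control lower. The value for chromosome 11 rests on 27 common regions. The median of KAP1 minus ZFP57 ranged from -4 to 8 bp, with 9 chromosomes below 0, 4 at 0 and 7 above. In the common regions of dense windows the medians were -19 bp for control minus ZFP57 and 0 bp for KAP1 minus ZFP57. Where only 2 lists met outside dense windows, the median was -16 bp for control minus ZFP57 (1154 ZFP57 regions, -19 to -13), 1 bp for KAP1 minus ZFP57 (595 regions, -2 to 5) and 19 bp for KAP1 minus control (559 KAP1 regions without a ZFP57 start, 13 to 23). The shift of the control against both other lists was thus also seen where only 2 of the lists met. How positions were derived from reads was not stated for any list, and the part of that step in the shift was not tested.

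The order of the 3 midpoints shows the same asymmetry. In the 1289 common regions without a tie, the control was lowest in 65.6%, in the middle in 22.4% and highest in 11.9%. ZFP57 was highest in 43.5% and KAP1 in 44.5%. The commonest orders were control, ZFP57, KAP1 (459 regions) and control, KAP1, ZFP57 (387 regions), and the rarest was ZFP57, KAP1, control (70 regions).

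Agreement in position was closer where all 3 lists met than where 2 did. Control and ZFP57 midpoints were within 50 bp in 76.9% of common regions (74.6 to 79.2%) and in 63.1% of regions with a control start only (60.2 to 65.9%). KAP1 and ZFP57 midpoints were within 50 bp in 77.0% of common regions (74.7 to 79.2%) and in 64.7% of regions with a KAP1 start only (60.7 to 68.5%). The rule made these classes from start distances of the same lists, so the shares are a description. The classes were not tested against each other, because regions of 1 library are not replicates.

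Common regions were not evenly scattered. The nearest other common region lay within 1 kb for 475 of them (35.6%) and within 10 kb for 704 (52.7%, interval 50.02 to 55.4%). At the other end, 280 (20.97%) had none within 1 Mb. Between these lay a sparse range: only 100 (7.49%) had their nearest neighbour 10 to 100 kb away. The set thus held 2 kinds of places, tight groups and widely spaced single ones. Nearest starts were 76 bp apart at the least, and 20 common regions overlapped another.

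**Figure D2:**
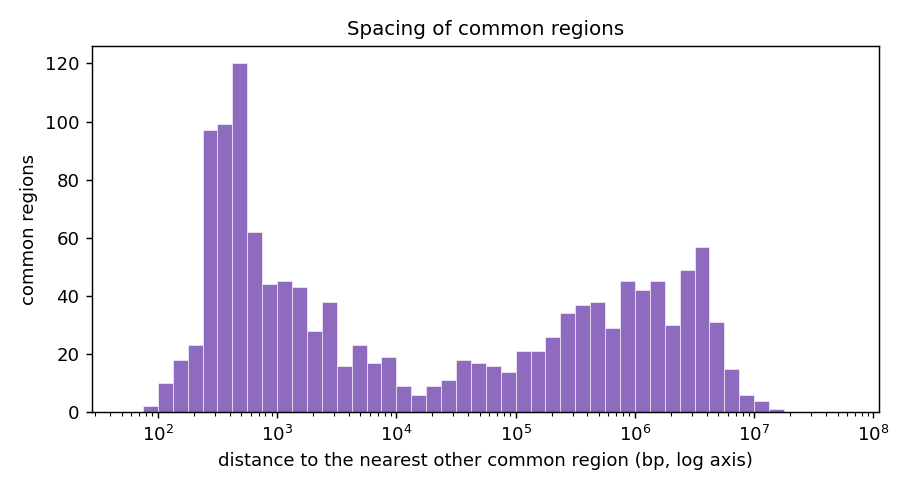
Distance from each of the 1335 common regions to the nearest other one, on a log axis in bp. The distances form 2 groups, one below 10 kb, which holds 704 regions, and one above 100 kb, with 100 regions between 10 and 100 kb.

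Other ZFP57 regions outside dense windows were spaced more widely from regions of their own list. Another ZFP57 region lay within 1 kb of 45.8% of common regions (43.1 to 48.5%), of 32.1% of regions with a KAP1 start only, of 25.7% with a control start only and of 6.50% with neither (5.90 to 7.15%). Inside dense windows the share for common regions was 85.5%. The median distance to the next ZFP57 region was 1396 bp for common regions, 4542 bp for those with a KAP1 start only, 13465 bp for those with a control start only and 59995 bp for those with neither. Common regions lay in windows with a median of 21 control regions. The median was 21 for regions with a KAP1 start only, 20 for those with a control start only and 18 for those with neither. The window of 305 common regions (22.8%, 20.6 to 25.2%) touched a dense one. This share was 26.2% for regions with a KAP1 start only (22.7 to 29.9%), 19.1% for those with a control start only (16.8 to 21.5%) and 14.05% for those with neither (13.2 to 14.9%). Common regions thus lay between the other 2 shared classes in this respect.

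Joining common regions within 5 kb gave 852 loci. Of these, 673 held 1 common region, 93 held 2, 72 held 3 to 7 and 14 held 8 or more. The 86 loci with 3 or more held 476 common regions (35.7%), with a median length of 3887 bp. Those 86 loci held 580 control, 590 ZFP57 and 591 KAP1 regions in all. Most of these numbers are equal by construction, since each common region brings a control and a KAP1 partner, so the counts are a description of the loci only.

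The 10 loci with the most common regions held 136 of them (10.2%), together with 166 control, 181 ZFP57 and 170 KAP1 regions. The first was on chromosome 8 from 56197257 to 56209039 and held 22 common regions in 11783 bp, among 28 control, 26 ZFP57 and 24 KAP1 regions. Neighbouring common regions there were a median of 480 bp apart. A run of neighbouring common regions recurred further along this locus, with the same spacing and equal or nearly equal offsets. Its 22 common regions thus include a repeated arrangement, and each was counted on its own. The second was on the X chromosome from 143694441 to 143714476, with 19 common regions among 20 control, 23 ZFP57 and 22 KAP1 regions. Next came a locus on chromosome 6, from 68192987 to 68201709, with 16 common regions among 18, 21 and 19. Because each common region has a partner in both other lists, the counts of the 3 libraries in these loci are close by construction. They do not show closer agreement in position. Without the 10 loci, 65.5% of common regions (62.7 to 68.2%) lay within 50 bp of both others, against 63.7% with them.

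The next loci held 12 to 15 common regions each. The locus on chromosome 4 from 46588745 to 46597462 held 15 common regions. Its control and KAP1 midpoints both lay below those of ZFP57, at medians of -45 and -64 bp, the latter being far from the 0 bp of the whole set. The locus on chromosome 7 from 71218458 to 71231509 held 12 common regions among 18 control, 22 ZFP57 and 15 KAP1 regions. The locus on chromosome 14 from 8090431 to 8100644 also held 12, and had the most KAP1 regions relative to the others (14 control, 15 ZFP57 and 20 KAP1). Medians away from those of the whole set also occurred in other loci of the 10. On chromosome 6 the control median was 5.5 bp, with the control lower in 8 of 16 common regions, and the KAP1 median was 24 bp on chromosome 17 and 50.5 bp in the chromosome 1 locus that starts at 172994087. Each of these medians rests on 8 to 16 common regions.

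The most closely packed loci by common regions per kb, among these 10, were on chromosome 1 and chromosome 17. The chromosome 1 locus from 24619012 to 24622977 held 9 common regions in 3966 bp, or 2.27 per kb, and its 3 lists held 11 control, 10 ZFP57 and 10 KAP1 regions. The chromosome 17 locus from 39980374 to 39985731 held 12 in 5358 bp, or 2.24 per kb, with 16 control, 15 ZFP57 and 15 KAP1 regions. The other 2 of the 10 loci were on chromosome 12 from 94122322 to 94129669, with 11 common regions, and on chromosome 1 from 172994087 to 172999096, with 8. Median gaps between neighbours in the 10 loci ranged from 413 to 847 bp, which places the common regions of a locus close behind one another.

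**Figure D3:**
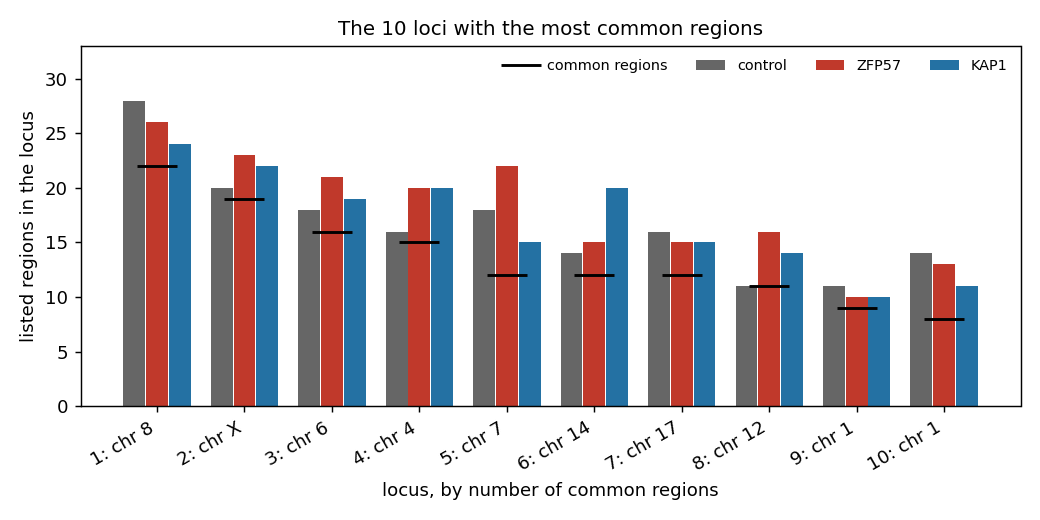
Number of listed regions (vertical axis) of the control (grey), ZFP57 (red) and KAP1 (blue) libraries in the 10 loci with the most common regions, with the number of common regions as a black line. In the first locus, on chromosome 8, the lists held 28, 26 and 24 regions and 22 common regions; the lowest number of common regions among the 10 loci was 8.

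At the other extreme were lone triples, common regions with no further region of any list within 10 kb. They numbered 310 (23.2%, interval 20.98 to 25.6%). Control and ZFP57 midpoints lay within 50 bp in 85.5% of them, against 73.6% of common regions that had another within 10 kb. For KAP1 and ZFP57 these shares were 87.4% and 75.4%. The KAP1 midpoint lay within 10 bp of the ZFP57 midpoint in 41.9% of lone triples, against 33.8% of the grouped common regions. For the control midpoint these shares were 15.5% and 16.1%, but this limit is set around 0 bp, away from the centre of the control offsets. The absolute distance from ZFP57 to KAP1 had a median of 15 bp in lone triples and 20 bp in the grouped ones. From ZFP57 to control the medians were 24 and 28 bp. The signed control offsets had quartiles of -31 and -8 bp in lone triples and of -44 and -4 bp in grouped ones. The signed control shift was -21 bp (-24 to -18) in lone triples and -22 bp (-24 to -19) in grouped ones, with overlapping intervals. The difference between lone and grouped regions was not tested.

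Some groups repeated the same arrangement at a fixed step along the chromosome. A pair of loci on chromosome 6, from 11797052 to 11798850 and from 11823264 to 11825062, each held 6 regions (2 of each list) at identical relative positions over 1799 bp, 26212 bp apart. They were the only pair among 205 loci with 4 or more regions that matched exactly in all positions, in either orientation. Measured from the first ZFP57 start, the KAP1 starts lay at 2 and 1506 bp, the control starts at 46 and 1649 bp and the second ZFP57 start at 1585 bp.

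A looser comparison, chosen after the data were seen, took single common regions with the same 2 signed offsets, with 3 or more on 1 chromosome and the next copy within 200 kb. It found 6 such series with 21 common regions, on chromosomes 3, 10 and 11. Arrangements that occurred only 2 times, such as the run in the chromosome 8 locus above, were outside this rule. Offsets also coincided between distant places: 223 common regions (16.7%) shared their pair of offsets with another, and in 72 of the 100 shared pairs all holders were on different chromosomes. In the 6 series, however, the step between copies was also constant to within 12 bp.

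On chromosome 10 the unit was 8509 bp long and occurred 4 times. Common regions with a control offset of -32 bp and a KAP1 offset of -1 bp started at 103605996, 103614506, 103623015 and 103631524, so the steps were 8510, 8509 and 8509 bp. A second series in the same units had offsets of -54 and -78 bp (4 copies) and the third had -139 and 5 bp (3 copies). Each copy held 4 common regions and 21 regions of the 3 lists. In copies 1 to 3, 8 of 8 control, 5 of 5 ZFP57 and 8 of 8 KAP1 regions recurred at the same place to within 5 bp. In all 4 copies 5, 4 and 5 did.

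On chromosome 3 the step was 32603 to 32612 bp, with 4 copies whose common region had a control offset of 28 bp and a KAP1 offset of 52 bp, the first starting at 113060640 and the last at 113158461. A second common region, with offsets of 133 and 4 bp, recurred in 3 of the copies. Here the lists differed in number: each of the first 3 copies held 2 control, 6 ZFP57 and 6 KAP1 regions. Those recurring in each of the 3 to within 5 bp were 2 control, 6 ZFP57 and 4 KAP1 regions. The last copy held fewer, 1 control, 3 ZFP57 and 5 KAP1 regions. On chromosome 11 the series had 3 copies with equal offsets, starting at 82957055, 82968734 and 82980404, with steps of 11679 and 11670 bp. A further common region lay about 1 step below the first of them, with close but unequal offsets. The rule on equal offsets left it out, and whether the regions around it recur was not tested. The copies there held 1 common region each, among 6 control, 3 ZFP57 and 9 KAP1 regions in the first. The steps there differed by 9 bp, and 2 control, 1 ZFP57 and 2 KAP1 regions recurred in the second copy to within 5 bp. To within 12 bp, a limit chosen after the positions were seen, 6 of 6 control, 2 of 3 ZFP57 and 9 of 9 KAP1 regions did. The third copy held fewer, 3 control, 1 ZFP57 and 4 KAP1 regions. Both units thus held regions that only 1 or 2 libraries listed, repeated with the common ones.

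Identity of sequence between the copies was not tested. Each copy counts on its own in the 1335.

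**Figure D4:**
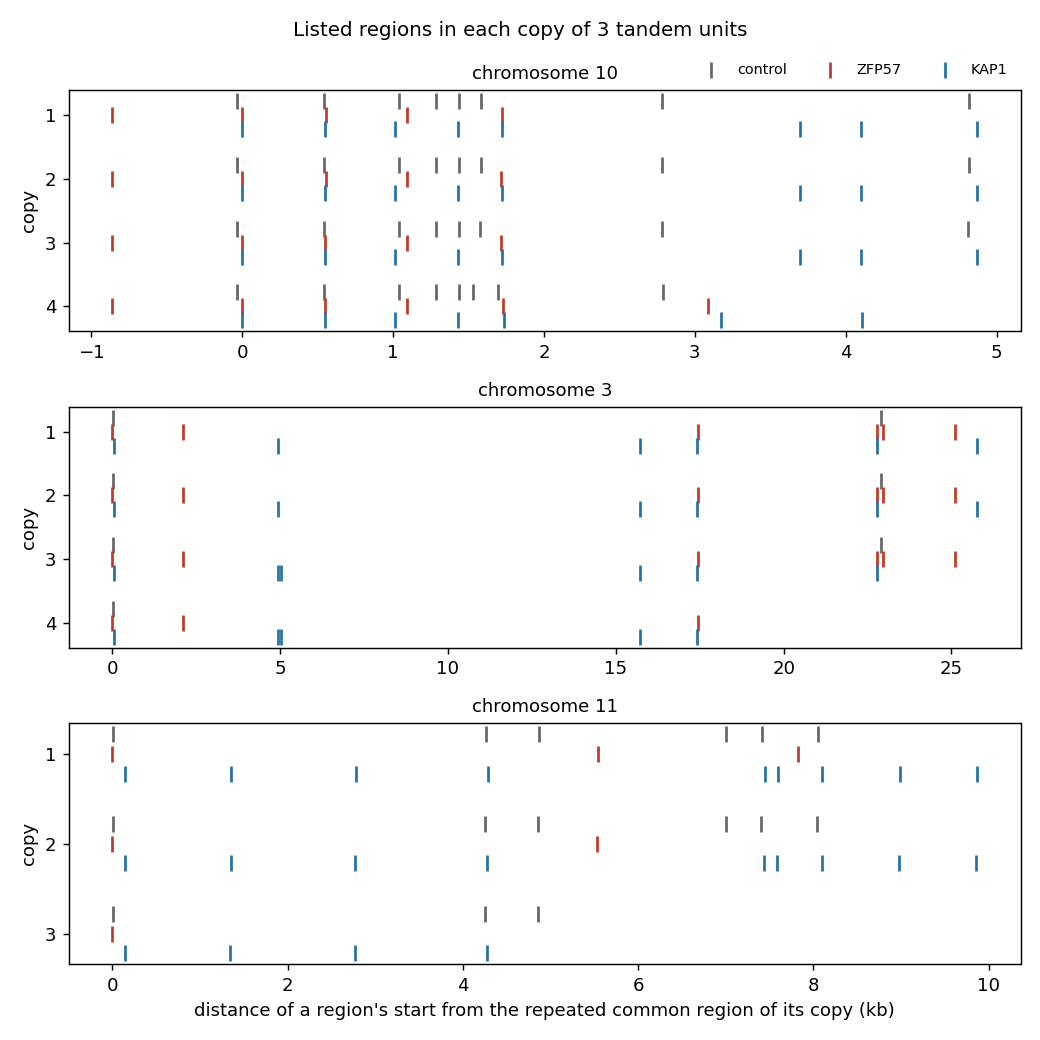
Starts of the listed regions of the control (grey), ZFP57 (red) and KAP1 (blue) libraries in each copy of the units on chromosomes 10, 3 and 11, against the distance in kb from the repeated common region of that copy. Marks line up vertically where a region recurs; on chromosome 10 all regions of the first copy recur in copies 2 and 3.

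Common regions occurred on 19 autosomes and X, at 0.553 per Mb over the 2413 Mb outside dense windows. A common region was found in 612 of those 1 Mb windows (25.4%), and 21 windows with 10 or more held 316 of them (23.7%). The highest densities were on chromosome 14 (0.846 per Mb, interval 0.688 to 1.03), chromosome 8 (0.8, 0.638 to 0.990) and X (0.796, 0.663 to 0.949). The lowest were on chromosome 11 (0.243, 0.160 to 0.354), chromosome 10 (0.331, 0.235 to 0.452) and chromosome 16 (0.376, 0.262 to 0.523). The 3 highest intervals overlap each other, and so do the 3 lowest, but none of the 3 highest overlaps any of the 3 lowest. These intervals treat grouped regions as independent, so the lack of overlap does not separate the chromosomes. Windows with 10 or more held 45 of 99 on chromosome 14, 48 of 84 on chromosome 8 and 73 of 125 on X. They held 16 of 39 on chromosome 10 and 0 on chromosomes 11 and 16. On Y, 2 of 3 windows were dense, and the remaining 1 held 3 ZFP57 regions and 0 common regions.

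Counted as loci, the chromosomes were more alike. X held 0.344 loci per Mb, the same as the autosomal median of 0.344, where its density of common regions was 1.62 times the autosomal median (interval 1.35 to 1.93). With windows called dense from 20 control regions that ratio was 1.21 (0.934 to 1.54), an interval that includes equal densities, and from 30 it was 1.64 (1.34 to 1.99). Lone triples on X were likewise at the autosomal median (0.127 per Mb for both), but the autosomes ranged widely, from 0.0541 to 0.198. On X, 4 windows with 10 or more common regions held 73 of its 125. The largest of these, from 51 to 52 Mb, held 22 common regions among 31 control, 29 ZFP57 and 30 KAP1 regions. These windows were chosen by their number of common regions after the values were seen, so leaving them out lowers densities by construction. Without such windows on any chromosome, X held 0.340 common regions per Mb against an autosomal median of 0.446. In that count 17 autosomes were higher than X, which is a description only. Chromosome 8 likewise had 48 of its 84 common regions in 3 such windows.

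X had the highest share of ZFP57 regions that were common. Of its 244 ZFP57 regions outside dense windows, 125 were common regions (51.2%, interval 44.8 to 57.7%), against 5.30% to 24.2% on the autosomes, with a median of 13.5%. X held few other ZFP57 regions: 1.55 per Mb in all against an autosomal median of 3.87, the lowest of the 20 chromosomes. Leaving out the windows of 10 or more common regions lowers the share by construction, since they were chosen by that number after it was seen. It left 39.7% on X (31.3 to 48.6%, 52 of 131) and 5.30% to 15.4% on the autosomes. On chromosome 8 the share went from 24.2% to 12.9%. These shares are a description only. X held 9.36% of the common regions (7.85 to 11.1%), 2.69% of ZFP57 regions with a control start only, 4.54% of those with a KAP1 start only and 1.01% of those with neither (0.771 to 1.29%). Lone triples and loci on X were thus as dense as on an average autosome, while ZFP57 regions without both partners were sparse. The labels do not say how many X chromosomes the cultured cells carried, and the part of X copy number in these values was not tested.

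**Figure D5:**
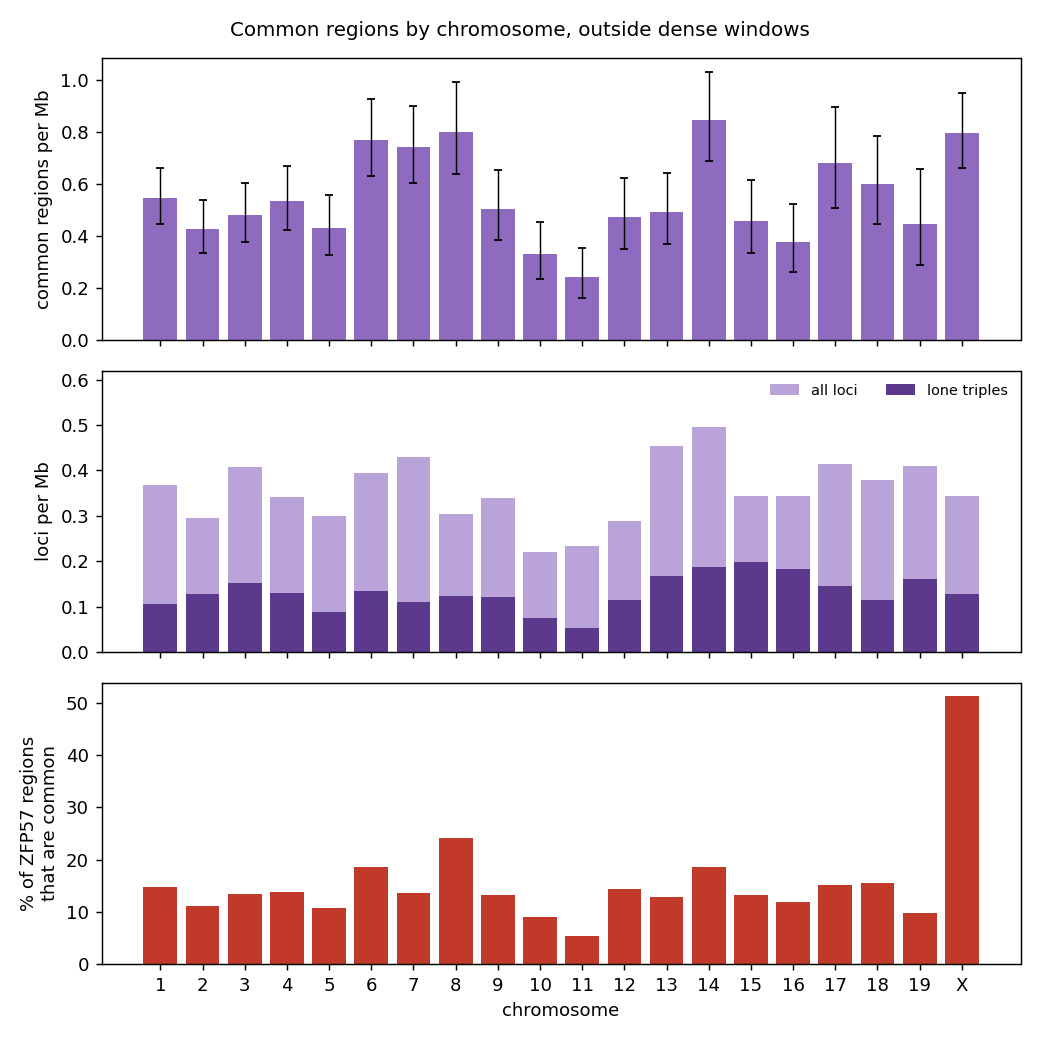
Common regions per Mb outside dense windows with exact 95% Poisson intervals (top), loci per Mb with the lone triples among them drawn in front (middle), and the percentage of ZFP57 regions outside dense windows that are common (bottom), for 19 autosomes and X. X is among the highest in the top panel (0.796 per Mb), near the autosomal median in the middle one (0.344) and above each autosome in the bottom one (51.2%).

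Along the chromosomes, the first of 10 equal parts of the listed span held 15.4% of common regions and 16.1% of lone triples, against 10.9% of the other ZFP57 regions outside dense windows. Part 7 held the fewest common regions (4.79%) but 8.39% of lone triples, whose lowest share was in part 3 (6.13%). Because 136 common regions sit in 10 loci, single loci weigh heavily in such shares.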

How the data were processed

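Nuclei were treated with paraformaldehyde and sonicated before immunoprecipitation, per the labels' protocols. The submitters' processing notes name Bowtie and build mm9. Versions, peak calling and its threshold, control subtraction and the handling of reads with several matches were not given in the sources used here. Regions are the unit of the 3 files deposited by the authors, which give the chromosome, start and end of each and no header, count, score or signal. Printed starts are the file's start plus 1. Distances were measured between starts, which equals midpoints since all widths are 150 bp. Sequencing depth is unknown.

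The nearest control and KAP1 start was found for each ZFP57 region, ties going to the lower start. Chromosome density used 1 Mb windows from the first to the last one with a region, without dense windows. Loci joined common regions within 5 kb. Named loci are the 10 with the most common regions (ties by listed regions, then position), the exact repeated patterns and the 3 chromosomes highest and lowest in density. The members and rules were chosen with earlier results of these data known. Signed offsets, lone triples, single-region series and windows of 10 or more common regions were added after seeing the data. The code was tested on simulated lists with planted triples, a planted shift and a planted array. Python 3.11.15, numpy 2.4.6, pandas 2.3.3, scipy 1.17.1 and matplotlib 3.10.9 were used.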

Additional observations from a re-analysis of the deposited data

How the results depend on the processing

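Leaving out a replicate was not possible with 1 library in each group. No paired analysis was possible because there is 1 sample a group. Over 17 alternatives giving 116 values, 86 stayed within the interval of the reported value, or within 1.5 times a reported count, and 30 did not. The signed control offset stayed within its interval in each alternative run. Starts less than 75 bp apart gave a share of 11.4%, median distances of 23 bp to control and 15 bp to KAP1, and 81.7% within 50 bp of both. Starts less than 300 bp apart gave 17.0%, 29 bp, 23 bp and 54.8%. These move by construction, since the rule bounds the distances. Calling windows dense from 20 control regions left 623 common regions in 480 loci, a share of 12.8%, a median of 16 bp to KAP1, 70.9% within 50 bp of both, 40.1% with another within 10 kb, an X density of 1.21 times the autosomal median (interval 0.934 to 1.54) and 41.1% of X regions common. Calling them dense from 80 gave 2268, 18.4%, 60.4% within 50 bp of both, 65.3% with another within 10 kb, 2.02 times for X and 58.7%. From 30, added after seeing the data, the X density was 1.64 times the autosomal median (1.34 to 1.99). The number of common regions thus depends on this threshold, and the higher density on X was not seen from 20 control regions beyond its interval. Leaving out windows next to dense ones gave a share of 13.5% and 49.3% with another within 10 kb; leaving out X and Y gave a share of 13.6%. Counted over control regions the share was 4.61%, and over KAP1 regions 18.2%, which are shares of other lists. Joining within 1 kb, or allowing 2 bp per position, gave 2 repeated patterns in place of 1. Counting neighbours within 1 kb gave 35.6%. Unless stated, the cause was not tested.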
